A study of Mus musculus with 20 samples.

Results

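Liver taken at the end of hemorrhagic shock was compared with liver of non-manipulated mice, using the 4 arrays labelled shock and the 5 labelled control, 9 of the 20 Affymetrix Mouse430_2 arrays of the series. The arrays were chosen by their titles alone, and all 12832 genes that were bright enough to be tested were compared. Every mouse was a male C57BL/6 aged 8 to 12 weeks, and RNA came from whole liver. The shock group had 1.5 h of hemorrhagic shock together with severe trauma and no resuscitation, so bleeding, trauma and anesthesia cannot be told apart. The control mice are described as non-manipulated, and the labels do not settle whether they were anesthetized. A further 3 arrays came from mice with minor trauma, and the other 8 from mice resuscitated for 1 h or 4.5 h after the same shock and trauma. Each array is 1 labelled sample, and where nothing says that samples came from separate mice the p values measure only the spread between these samples.

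Hemorrhagic shock lowers blood flow and oxygen delivery to the liver while stress hormones and injury signals reach it. Cells that meet such signals first transcribe immediate early genes, whose messages are short-lived and which encode transcription factors such as the AP-1 and Egr proteins together with the phosphatases and mRNA decay factors that shut the response off. Kupffer cells, the resident macrophages of the liver, and sinusoidal endothelium also make chemokines that draw neutrophils from the blood, and hepatocytes adjust glucose and lipid output and make acute phase proteins.

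Values are log2 signals after quantile normalization, on a scale where the median of each array lay at 4.60. A value after ± is a standard error for a fold change and a standard deviation for a group mean. Calls were made with limma at adjusted p values up to 0.05, corrected over all 12832 genes. Where no array of the lower group had a gene above the array median, the fold is a bound, set against that median. The signals are relative to the array, so they do not tell how much RNA a gram of liver held, and in whole tissue fewer cells of a type and less RNA per cell cannot be told apart.

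The array labelled control 5 stood apart, and values without it are given beside the results that it moved most. On the first principal component of the 9 arrays, which held 31.6% of the variance, the other controls lay between -23.9 and -22.3, control 5 at -4.37 and the shock arrays between 13.3 and 30.3. Its closest array was minor trauma 2 (r = 0.983 across genes), and it had the highest control value for 131 of the 260 genes called higher in shock. The log2 ratio of 3′ to 5′ signal, a measure of RNA integrity, was -0.30 ± 0.18 in controls and -0.33 ± 0.10 in shock for Gapdh and 0.78 ± 0.25 and 0.83 ± 0.07 for beta-actin (exact permutation p = 0.770 and 0.730, two-sided, n = 5 and 4). The hepatocyte markers (10 of 12 tested, 0 called, 1 at an unadjusted p under 0.05) summed to 68009 to 71345 in controls and 69109 to 71519.7 in shock on the linear scale, so the defining transcripts of the labelled tissue were present on every array. The arrays also form 2 sets by the dap spike-in, a bacterial RNA added during labelling. Values within each set are given with the total counts and for many of the lists, but not for all.

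At the end of shock 399 genes, 3.11% of those tested, differed from control, and most of the large differences were rises. Of them 260 (2.03%) were higher and 139 (1.08%) lower, 175 higher and 33 lower by at least 2-fold, and 59 higher and 2 lower by at least 4-fold. The arrays of the groups did not overlap for 205 of the 260 genes and for 131 of the 139, against 3.09% of all genes tested that were higher without overlap and 4.59% that were lower. The median log2 fold change over all genes was -0.03. Without control 5 the count was 499 (312 higher, 187 lower), of which 360 were among the 399. The count fell to 252 without shock 2 and to 245 without shock 3. It was 376 with the dap set as a block, 152 within the 4 arrays of these groups that carried the spike-in and 55 within the other 5. Rises made up 65.2% of the calls here, 75.3% with median centring and 85.9% without scaling between arrays. Of 138 called genes named by rule, 105 were called in each of the 9 fits that left out 1 array, and 33 were not.

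**Figure D1:**
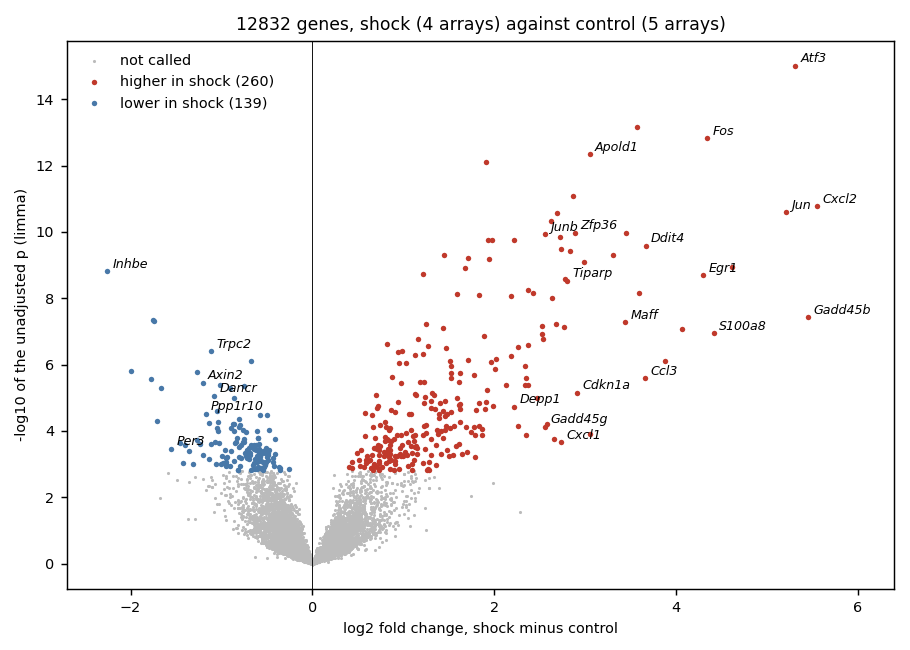
Log2 fold change (shock minus control, horizontal axis) against the -log10 of limma's unadjusted p (vertical axis) for 12832 genes, with the 260 genes called higher in red and the 139 called lower in blue. The red points reach 5.55 (Cxcl2), while the blue points end at -2.26 (Inhbe).

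Transcription factors of the immediate early class rose on every shock array. Among 22 AP-1 and ATF genes tested 8 rose and 0 fell (Atf3, Jun, Fos, Maff, Fosl2, Junb, Jund and Jdp2), with a median log2 fold change of 0.38 over the list, and among 14 Egr, Nr4a and Ier genes 6 rose and 0 fell, with a median of 0.58. Atf3, a repressor induced by many kinds of stress, read 4.41, 4.35, 4.02, 4.36 and 5.12 in controls and 9.35, 10.16, 9.27 and 10.24 in shock. The groups did not overlap, and Atf3 was 39.5-fold higher (5.30 ± 0.24, adjusted p = 1.25e-11), although 4 of the 5 controls lay below their array median. Fos, the partner of Jun in AP-1, read 5.16 to 6.16 in controls and 9.73, 10.68, 9.79 and 10.32 in shock, a 20.3-fold rise (4.34 ± 0.26). Jun itself read 5.63, 5.88, 5.78, 6.87 and 7.64 in controls and 11.11, 12.16, 11.03 and 11.96 in shock, 36.9-fold higher (5.21 ± 0.41, adjusted p = 3.93e-08), with controls 4 and 5 above the rest. The small Maf protein Maff rose 10.9-fold, Junb 5.87-fold and Jund 3.76-fold. Jund read 8.63 to 9.13 in controls and 10.72 to 11.17 in shock.

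Egr1, a zinc finger factor switched on by growth factor signalling, read 8.65 and 8.46 in controls 1 and 2, 6.86, 6.4 and 6.51 in the other controls, and 11.51 to 11.85 in shock. The shock arrays lay close together while the controls spread widely without reaching them, and the rise was 19.7-fold (4.30 ± 0.43, adjusted p = 8.78e-07). The orphan nuclear receptor Nr4a1 read 4.91 to 5.37 in controls and 7.81 to 8.19 in shock (7.30-fold). Ier2 rose 6.66-fold, the survival factor Ier3 9.86-fold and Csrnp1 3.01-fold. Of 16 Kruppel-like factors 4 rose and 0 fell, with a median of 0.22 over the list: Klf4 5.39-fold, Klf10 4.55-fold, Klf2 3.43-fold and Klf6 3.27-fold. Klf2 and Klf4, which restrain inflammation in endothelium, read 5.10 to 6.04 and 4.33 to 5.64 in controls and 6.84 to 8.02 and 7.08 to 7.72 in shock. The corepressor Irf2bp2 rose 3.92-fold, Myc 2.74-fold, and the C/EBP factors Cebpd and Cebpb 3.72-fold and 2.21-fold.

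Genes that end early signalling rose along with the factors. Of 18 dual-specificity phosphatases and Sprouty proteins, which switch off MAP kinases or their receptors, 8 rose and 0 fell (median 0.78). Dusp1 read 7.89, 8.91, 9.28, 9.30 and 8.94 in controls and 11.30, 11.99, 11.22 and 11.81 in shock (6.58-fold, 2.72 ± 0.23, adjusted p = 1.28e-07), and Dusp2, Dusp6, Dusp8 and Spry2 rose by 2.18-fold to 3.55-fold. Of 13 mRNA decay and antiproliferative genes 5 rose (Btg2, Zfp36, Tob2, Zfp36l1 and Btg1), with a median of 0.21. Zfp36, which binds AU-rich elements and speeds the decay of cytokine messages, read 7.87 to 8.92 in controls and 11.28, 11.68, 10.63 and 11.86 in shock, 7.42-fold higher (2.89 ± 0.24). Btg2, an antiproliferative factor, rose 11.9-fold from 7.16 ± 0.54 to 10.73 ± 0.28.

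Regulators of G-protein signalling and small GTPases formed a further group, with 7 of 18 higher, 0 lower and a median of 0.54. Rgs16, which shortens signalling from Gi and Gq coupled receptors, read 5.53, 5.06, 6.98, 9.0 and 7.89 in controls and 10.51 to 11.01 in shock, 14.7-fold higher (3.88 ± 0.56, adjusted p = 1.41e-04). Rgs1, Rgs2 and Rgs4 rose 4.65-fold, 2.65-fold and 3.34-fold, and Rasd1, a Ras protein induced by glucocorticoids, 5.15-fold. Apold1, an early gene of endothelial cells, read 4.72, 4.79, 4.93, 4.82 and 5.23 in controls and 7.99, 8.0, 8.41 and 7.39 in shock, with no overlap (8.27-fold, 3.05 ± 0.19, adjusted p = 1.47e-09). Of 19 targets of serum response factor or YAP 5 rose and 0 fell (median 0.30), among them Ccn1 5.74-fold and gamma-actin (Actg1) 3.82-fold, the latter from 9.80 to 10.69 in controls to 11.94 to 12.31 in shock. Within the arrays with and without the dap spike-in, the genes called higher were 8 and 5 in the AP-1 and ATF list, 5 and 5 in the Egr list, 3 and 3 among Kruppel-like factors and 3 and 2 in the mRNA decay list. They were 4 and 1 among the phosphatases and Sprouty proteins, 5 and 2 among the G-protein regulators and 4 and 2 among the targets of serum response factor.

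**Figure D2:**
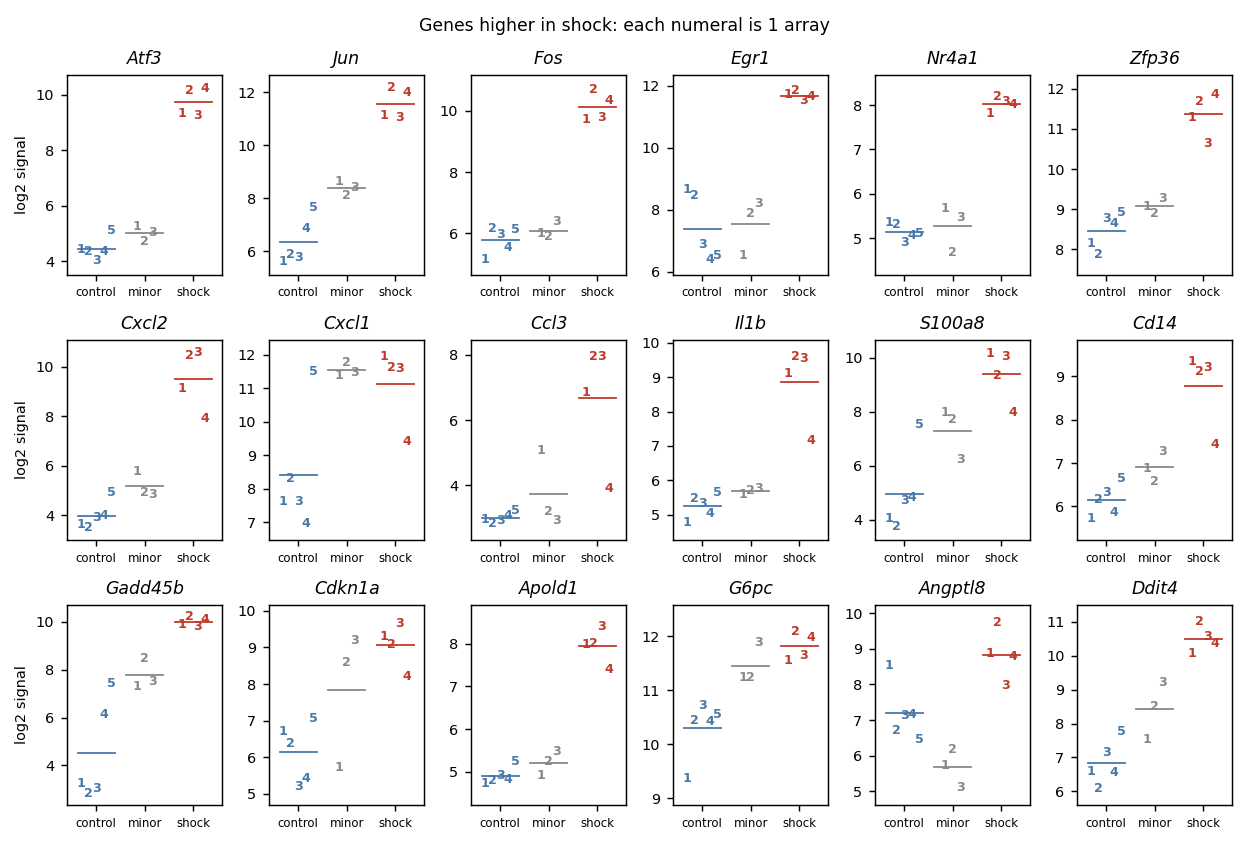
Log2 signal (vertical axis) of 18 genes, with each array drawn as its replicate number for control, minor trauma and shock and a bar at each group's mean. Atf3 lies at 4.02 to 5.12 in controls and at 9.27 to 10.24 in shock, whereas for Cxcl1 the array control 5 (11.50) lies among the shock values and shock 4 (9.42) below them.

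Chemokines and cytokines rose strongly but unevenly between the shock arrays. Of 21 chemokines tested 5 rose and 0 fell (Cxcl2, Ccl3, Cxcl1, Ccl4 and Ccl5), with a median of 0.53, and of 27 cytokines and receptors 8 rose and 0 fell, with a median of 0.26. Cxcl2, which draws neutrophils through the receptor Cxcr2, read 3.62, 3.50, 3.90, 3.97 and 4.91 in controls and 9.14, 10.47, 10.60 and 7.91 in shock. It was the largest rise, 46.8-fold (5.55 ± 0.42, adjusted p = 3.07e-08), and only 1 control was above its array median. Its neighbour Cxcl1 read 7.62, 8.30, 7.61 and 6.98 in controls 1 to 4 but 11.50 in control 5, and 11.94, 11.62, 11.57 and 9.42 in shock. The groups overlapped, the rise was 2.73 ± 0.61 with all arrays (adjusted p = 0.0129) and 3.51 without control 5, and the call was lost without shock 1, 2 or 3 (adjusted p up to 0.058). Ccl3, a chemokine made by activated macrophages, read 2.83 to 3.24 in controls and 6.85, 7.95, 7.96 and 3.91 in shock, at least 4.18-fold higher. Ccl4 rose 5.08-fold, and Ccl5 2.70-fold (adjusted p = 0.0105, and 0.062 without shock 3). Without shock 4 the count of chemokines called was 9, and within the arrays with and without the spike-in it was 5 and 1.

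Il6, the main inducer of the hepatic acute phase response, was below the array median on every control (3.21 to 3.63) and read 7.56, 8.84, 9.29 and 6.24 in shock, at least 10.4-fold higher (4.61 ± 0.44, adjusted p = 5.58e-07). Il1b read 4.78 to 5.65 in controls and 9.10, 9.58, 9.55 and 7.16 in shock (12.1-fold), and Il1a rose 3.74-fold. Il10, the cytokine that restrains macrophages, read 3.96 to 4.22 and 6.24, 7.59, 8.06 and 5.65, at least 4.86-fold higher. Tnf was dim in both groups, 3.11 to 4.04 and 4.25 to 6.12, and at least 1.70-fold higher. Of 23 NF-kB subunits, inhibitors and targets 6 rose and 1 fell (median 0.49). The risers included the inhibitors Nfkbia (2.32-fold, 1.21 ± 0.12), Tnfaip3 (5.04-fold) and Nfkbiz (4.05-fold), and the gene that fell was Cflar, an inhibitor of caspase 8 (1.84-fold lower). The Cflar call was lost on the deposited values, within each dap set and with the mean of its kept probe sets, 1 of which gave 0.17 without a call. Within the spiked and other arrays 6 and 2 cytokine genes and 4 and 1 NF-kB genes were called higher. The acute phase proteins themselves moved little, with 1 of 26 called higher (the endotoxin receptor Cd14, 6.20-fold) and a median of 0.06. Of 22 interferon-induced genes 0 were called in limma, the median was -0.05, and 6 had an unadjusted p under 0.05 (2 of them higher).

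Of 12 neutrophil markers tested 8 rose and 0 fell, and the median was 1.26. S100a8, a subunit of calprotectin, read 4.04, 3.76, 4.71 and 4.85 in controls 1 to 4, 7.53 in control 5, and 10.18, 9.34, 10.05 and 7.98 in shock (21.3-fold, 4.41 ± 0.56, and 5.05 without control 5). S100a9, the other subunit, rose 16.7-fold (4.06 ± 0.51, and 4.59 without control 5), and the lectins Clec4e and Clec4d at least 2.21-fold and 1.79-fold, with control 5 overlapping shock 4 in both. Within the arrays with and without the spike-in 6 and 0 of the markers were called, with medians of 1.48 and 1.10. The summed signal of the list ran from 234 to 3975 in controls and from 723 to 3145 in shock, and Mpo, Camp, Ltf and Cxcr2 were below the array median on all 9 arrays. This sum includes Lcn2, which read 11.78 on control 5 and at most 7.67 on the other controls, while S100a8 read 7.53 on control 5. The range in controls therefore depends on 1 gene of 1 array, and the part of neutrophils in it was not tested. No marker of monocytes (6 tested, 2 at an unadjusted p under 0.05), Kupffer cells (10 and 0), T and NK cells (6 and 0), B cells (4 and 0) or endothelium (11 and 1) was called in limma with all arrays. Without control 5 the endothelial marker Lyve1 (1.53, adjusted p = 2.92e-04) and the monocyte marker Plac8 (0.49, adjusted p = 0.0238) were called, against 1.13 and 0.35 with it (0.0793 and 0.274). The other members did not follow, as the list medians without control 5 were -0.06 for endothelium and -0.03 for monocytes. The summed monocyte signal was lower in shock, 3075 to 3735 against 3747 to 4904 in controls. Of its members Chil3, F13a1 and S100a4 were below the array median on all 9 arrays. Fn1 was not called, with a log2 fold change of -0.33 to -0.23 over the fits without 1 array. The part of each member in the sum was not tested. The part that blood neutrophils had in the rise of the chemokine and cytokine genes was not tested.

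The promoters of the early factors and chemokines that rose at least 4-fold were read for a cAMP response element (CRE, TGACGTCA), an AP-1 site (TGANTCA), a CArG box and the NF-kB motif, and 5 stretches with a match are shown because the largest rises lay among these genes. Sequences are from RefSeq, build GRCm38.p6, and run 5′ to 3′ along the strand of the gene, with the motif in capitals. Bases were counted back from the annotated start, both strands were searched, and overlapping matches were allowed. Promoters on the chromosome that carries Egr1 were left out of this display, so whether the Egr1 promoter holds a motif is not shown.
Cxcl2: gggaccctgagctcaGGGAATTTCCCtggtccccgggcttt
Cxcl1: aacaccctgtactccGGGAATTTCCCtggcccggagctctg
Fos: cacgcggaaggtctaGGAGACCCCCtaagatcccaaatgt
Ier3: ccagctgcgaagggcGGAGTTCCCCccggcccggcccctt
Maff: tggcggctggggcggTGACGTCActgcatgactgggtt
The Cxcl2 stretch lies at chr5:90903787-90903827 and that of Cxcl1 at chr5:90891159-90891199, both on the plus strand. Each holds the same run of 11 bases, made of 2 overlapping NF-kB matches, 97 and 96 bases before the start in Cxcl2 and 71 and 70 in Cxcl1. The Fos stretch (chr12:85473661-85473700, plus strand) has its match 214 bases before the start, and that of Ier3 (chr17:35821606-35821645, plus strand) 92 bases before it. In Maff (chr15:79347476-79347513, plus strand, 1 of 3 annotated promoters) the motif is a CRE, 29 bases before the start.

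The NF-kB motif was present in 22 of 286 promoters of the genes called higher (7.69%), in 9 of 55 of those higher by at least 4-fold (16.4%), in 2 of 154 of the genes called lower (1.30%) and in 5.23% of those of all genes tested. The TATA box (TATAAA) was in 16.1%, 21.8%, 7.14% and 8.33% of the same sets, and the CRE in 4.55%, 5.45%, 0.649% and 2.77%. The AP-1 site was in 8.04% and 5.20% of the promoters of genes called higher and lower, and the GC box (GGGCGG) in 57.7% and 60.4%. The windows ran from 250 bases before to 50 after each start, a gene could have several, and 206 of the 260 higher and 114 of the 139 lower genes were in the table. Over all 32851 promoters of the table the shares were 4.5% for NF-kB, 13.6% for TATA, 1.79% for the CRE, 7.81% for AP-1, 1.63% for the CArG box and 35.7% for the GC box. These are counts of letters and not of bound sites, and no test was made of them.

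The array labelled shock 4, singled out after its values were seen, lay below the other shock arrays in chemokine and cytokine genes but not in early factors. Among the 26 genes called higher in the chemokine, cytokine, NF-kB and neutrophil lists, shock 4 had the lowest value of the 4 shock arrays in 26. Among the 31 called higher in 5 early factor lists (AP-1 and ATF, Egr to Ier, Kruppel-like, Dusp and Sprouty, mRNA decay) it was lowest in 12, and among all 260 in 154. Measured from the mean of controls 1 to 4, the median of the 26 genes was 2.30, 2.64, 2.85 and 0.94 in shock 1 to 4, and that of the 31 genes 1.96, 2.15, 2.04 and 1.91. Cd14 read 9.35, 9.11, 9.21 and 7.42 over the shock arrays, Clec4e 6.30, 6.32, 6.07 and 4.29, and Acod1, which makes itaconate in activated macrophages, 5.24, 5.11, 4.97 and 2.92, its call being lost without shock 1, 2 or 3 (adjusted p up to 0.0927). On shock 4 17 of the 26 genes exceeded every control and 23 of them controls 1 to 4, whereas 29 of the 31 early genes exceeded every control. Shock 4 also had the brightest deposited signals, with a median of 29.1 against 14.1 to 17.3 on the other shock arrays; on the deposited values it was lowest for 19 of the 26 genes and 2 of the 31. Its neutrophil marker sum was the lowest of the shock arrays, 723. Control 5 was raised in both classes, by a median of 0.66 and 0.40 over the same reference. What set shock 4 apart was not tested.

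**Figure D3:**
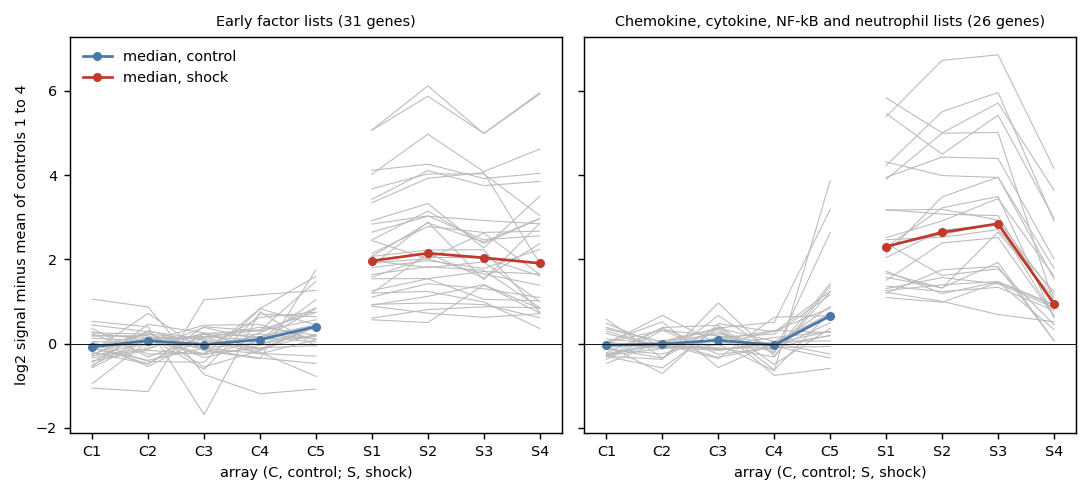
Log2 signal minus the gene's mean over controls 1 to 4 (vertical axis) on each control (C) and shock (S) array, with 1 grey line per gene and the median in colour. The median of the 31 early genes stays between 1.91 and 2.15 over the shock arrays, and that of the 26 inflammatory genes drops from 2.85 on S3 to 0.94 on S4.

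Growth arrest genes and genes known to respond to glucocorticoids rose, and control 5 had the highest control value in many of them. Of 19 growth arrest and p53 target genes 7 rose and 0 fell (median 0.55), and of 22 glucocorticoid-inducible genes 10 rose and 0 fell (median 1.14). Ddit4, Cdkn1a and Gadd45g were counted in both lists, so the lists do not stand apart. Without control 5 the counts were 7 and 14, within the spiked arrays 5 and 7 and within the others 2 and 3. Gadd45b, a stress sensor that restrains the cell cycle, read 3.25, 2.85, 3.02, 6.14 and 7.43 in controls and 9.81 to 10.20 in shock (43.9-fold, 5.46 ± 0.65, and 6.18 without control 5). Gadd45a rose 10.9-fold from 5.39 to 7.19 in controls to 8.92 to 9.63, and Gadd45g 5.87-fold (adjusted p = 0.00585). The cell cycle inhibitor Cdkn1a rose 7.50-fold, and Ddit4, an inhibitor of mTORC1 induced by hypoxia and by glucocorticoids, rose 12.7-fold from 6.09 to 7.75 in controls to 10.06 to 11.00 in shock (3.67 ± 0.32, adjusted p = 1.85e-07).

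The metallothioneins, which bind zinc, rose as well. Mt2 read 9.16, 7.08, 7.84, 9.86 and 12.68 in controls and 12.24 to 12.50 in shock, so that control 5 was above every shock value. For Mt2 the rise was 3.05 ± 0.65 with all arrays (adjusted p = 0.00837) and 3.90 without control 5, and for Mt1 2.66 ± 0.58 and 3.38. Of 17 metallothionein and antioxidant genes 3 rose and 0 fell, and within the arrays with and without the dap spike-in 3 and 0 were called higher. Cyp2b10, a xenobiotic-metabolizing P450, and Lcn2, which sequesters siderophores, were not called with all arrays and were called when that array was left out. Cyp2b10 read 3.82 to 6.14 in controls 1 to 4, 11.83 in control 5 and 8.07 to 9.15 in shock, a difference of 2.28 ± 0.96 with all arrays (adjusted p = 0.266) and of 3.61 without control 5 (5.04e-06), and it was also called on the deposited values and with array weights. For Lcn2 it was 0.69 ± 0.79 (adjusted p = 0.783) and 1.71 (0.0302).

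Genes of glucose handling rose in part. Of 17 gluconeogenic and cAMP-responsive genes 3 rose and 0 fell, with a median of 0.53, and within the arrays with and without the dap spike-in 2 and 1 were called higher. G6pc, the catalytic subunit that releases free glucose, read 9.37 in control 1, 10.41 to 10.72 in the other controls and 11.55, 12.08, 11.64 and 11.98 in shock, 2.85-fold higher (1.51 ± 0.31, adjusted p = 0.00608). Pck1, which commits the pathway and is given here because it was not called, averaged 12.16 in controls and 12.21 in shock (0.05 ± 0.15, adjusted p = 0.933). Ppp1r3g, a subunit that directs a phosphatase to glycogen, rose at least 4.83-fold from 3.42 to 4.02 in controls to 6.64 to 7.19 in shock, and Pdk4, which blocks pyruvate entry into the citrate cycle, 5.53-fold. Igfbp1, a secreted binder of insulin-like growth factors, rose 5.78-fold, and Irs2, an insulin receptor substrate, 2.33-fold. Angptl8, a hepatic hormone induced by insulin and feeding, was 3.12-fold higher (8.54, 6.70, 7.14, 7.16 and 6.46 against 8.87, 9.74, 7.97 and 8.79, adjusted p = 0.0226), but the groups overlapped through control 1 and 4 of the 9 fits without 1 array lost the call (adjusted p up to 0.119).

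Lipid synthesis genes rose in 5 of 22 cases (median 0.21), and in 3 and 1 within the arrays with and without the dap spike-in. The list of lipid oxidation and lipid droplet genes leaned the other way, though hardly within the arrays without the spike-in. Srebf1, the master regulator of lipogenesis, rose 3.01-fold from 9.11 ± 0.57 to 10.70 ± 0.46, its target Fasn 3.08-fold, and the sterol sensors Insig1 and Insig2 2.18-fold and 2.06-fold. Of 25 genes of fatty acid oxidation and lipid droplets 2 rose (Pdk4 and Plin5, 5.53-fold and 2.05-fold) and 2 fell (G0s2 and Ppara). Of the 25 genes 5 had a positive fold change, and the median was -0.26, against -0.03 for all genes. Within the arrays with and without the dap spike-in the median was -0.39 and -0.04. G0s2, an inhibitor of the lipase ATGL, read 9.03, 9.09, 8.90, 9.98 and 10.01 in controls and 7.55, 7.27, 6.96 and 7.83 in shock, 4.0-fold lower (-2.0 ± 0.30, adjusted p = 2.65e-04). Ppara, the receptor that drives fatty acid oxidation, was 1.44-fold lower (adjusted p = 0.0357), a call lost in 8 of the 9 fits without 1 array (adjusted p up to 0.114). Further probe sets of Ppara gave -1.0 ± 0.15 and -0.62 ± 0.14 on the log2 scale and were called.

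The activin subunits Inhbe and Inhbb moved apart. Inhbe, an activin subunit made mainly by hepatocytes, read 7.18, 6.88, 6.83, 7.46 and 8.08 in controls and 5.14, 5.21, 4.65 and 5.10 in shock. It was the largest fall, 4.79-fold (-2.26 ± 0.22, adjusted p = 6.99e-07). Inhbb, which forms activin B, read 4.63 to 5.51 in controls 1 to 4, 6.69 in control 5 and 6.90 to 7.62 in shock, 3.91-fold higher (1.97 ± 0.28, and 2.30 without control 5). A further probe set of Inhbb gave 0.45 ± 0.34 and was not called. Of the 25 genes of the activin, BMP and TGF-beta pathway 2 rose and 1 fell (median 0.15), and the third call was Skil, an inhibitor of Smad proteins (2.35-fold higher). Within the arrays with and without the dap spike-in, 2 and 0 genes of this pathway were called higher and 1 and 1 lower.

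Part of the hypoxia-inducible and vasoactive genes rose, 23.1% and 22.2% of those tested, against 2.03% of all genes. Of 26 hypoxia and glycolysis genes 6 rose and 0 fell (median 0.44), among them Bhlhe40 (5.75-fold), a repressor of clock genes that hypoxia induces, Pfkfb3 (4.81-fold), Ndrg1 (2.47-fold) and Adm (2.37-fold), which encodes the vasodilator adrenomedullin. Bhlhe40 read 7.82 to 9.46 in controls and 11.11 to 11.31 in shock. Of 18 vasoactive, clotting and fibrinolysis genes 4 rose, including thrombomodulin (Thbd, 2.74-fold, with control 5 overlapping shock 4) and the protease Adamts1 (1.92-fold). Adm was counted in both lists, and Ddit4 among the hypoxia genes as well as in the lists above. Within the arrays with and without the dap spike-in, 3 and 2 hypoxia genes and 2 and 0 vasoactive genes were called higher. Tiparp, an ADP-ribosyltransferase induced by the Ah receptor and by hypoxia, rose 6.94-fold. Of 19 heat shock genes 1 rose (Hspa1a, 3.44-fold) and 1 fell (Hspd1, 1.29-fold, a call lost in 8 of 9 fits without 1 array, adjusted p up to 0.116), and the median was -0.21. Of 25 genes of endoplasmic reticulum stress and the integrated stress response 3 rose, led by Ppp1r15a, the phosphatase subunit that restores translation (3.84-fold, 6.12 to 6.45 in controls and 8.04 to 8.59 in shock).

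Genes that fell did so by less, and several encode transcription factors. Trpc2, a cation channel gene, fell without overlap from 5.33, 5.16, 5.08, 5.02 and 5.20 in controls to 4.0, 3.85, 4.22 and 4.09 in shock, at least 1.47-fold lower (-1.12 ± 0.15, adjusted p = 8.41e-05). Dancr, a long noncoding RNA, read 6.02 to 6.45 in controls and 4.95 to 5.14 in shock (2.12-fold lower). Axin2, a target and inhibitor of Wnt signalling, fell 2.31-fold (6.03, 6.20, 6.11, 6.13 and 5.45 against 4.97, 4.69, 4.66 and 4.79). Ppp1r10, a nuclear regulator of protein phosphatase 1, fell 2.26-fold, and Sox18, an endothelial transcription factor, 3.27-fold, from 5.57 to 6.29 in controls to 3.61 to 4.75 in shock. Tmem25 fell 3.16-fold and Rtp3 2.08-fold. Of 20 clock genes 1 rose (Bhlhe40) and 2 fell, Per3 (2.94-fold, adjusted p = 0.0175, and up to 0.079 without control 3 or shock 3) and the output factor Tef (1.92-fold, adjusted p up to 0.107 in 5 of the 9 fits without 1 array). Further probe sets of Tef gave 0.07 and -0.04 on the log2 scale and were not called. Per3 read 5.13 and 5.17 in controls 1 and 2, 6.68 to 7.35 in the other controls and 4.25 to 4.99 in shock, and no label gives the hour of sampling.

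The Zfp genes, a large family of zinc finger genes that are mostly transcription factors, leaned lower. Of 253 tested 14 fell and 3 rose, 57 had a positive fold change, and the median was -0.21, against 139 and 260 of 12832, 5744 positive and -0.03 over all genes. Of the 253 genes 43 lay below the controls without overlap and 5 above, against 589 (4.59%) and 397 (3.09%) of all 12832 genes. The 3 that rose were Zfp36, Zfp36l1 and Zfp949, and the first pair are mRNA decay factors and not of the transcription factor class. Zfp809, which silences retroviral DNA, read 7.70 to 8.00 in controls and 6.54, 6.5, 6.52 and 7.21 in shock (2.20-fold lower, adjusted p = 0.00482), Zfp950 7.0 to 7.36 and 5.87 to 5.99 (2.42-fold lower), and Zfp503 fell at least 2.12-fold. The family was dimmer than the rest, with a median control level of 5.67 against 6.53 for all genes, and whether close relatives share probe signal was not tested. The median stayed between -0.25 and -0.21 with median centring, without scaling, without control 5, without shock 4 and within each dap set, while the falls called were 11, 5, 15, 13, 1 and 2. Of 41 Trim genes 3 fell and 0 rose (median -0.11).

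**Figure D4:**
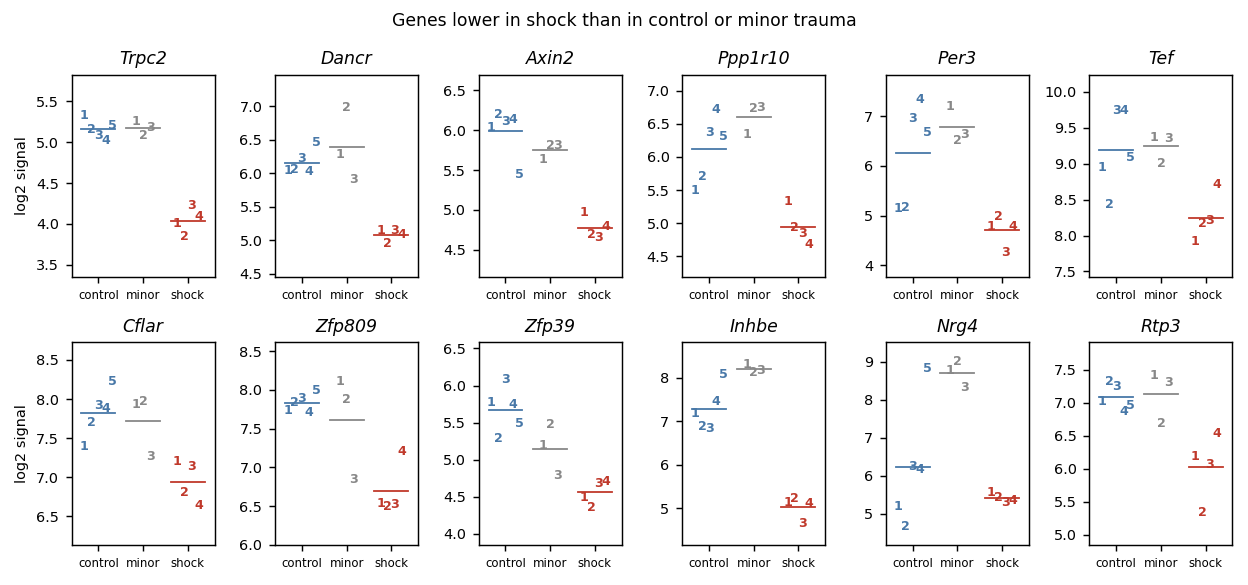
Log2 signal (vertical axis) of 12 genes in control, minor trauma and shock, with each array drawn as its replicate number and a bar at each group's mean. Inhbe lies at 4.65 to 5.21 in shock, below 6.83 to 8.08 in controls, and Nrg4 differs from minor trauma but overlaps the controls.

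Families chosen by symbol moved in both directions or little. Of 40 Fox, Sox and Gata factors 2 rose (Sox7 and Foxf1) and 2 fell (Sox18 and Foxa2), with a median of 0.03. Of 59 cytochromes P450 1 rose, Cyp26a1, which degrades retinoic acid (1.86 ± 0.38, adjusted p = 0.00673), and without control 5 the count was 2. Within the arrays with and without the spike-in no Fox, Sox or Gata factor was called.

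Large housekeeping groups had no gene called. Of 46 cytosolic ribosomal protein genes, 76 mitochondrial ribosomal protein genes, 85 respiratory chain and ATP synthase genes and 38 proteasome genes 0 were called in limma, with medians of 0.07, -0.01, 0.01 and -0.08 and with 3, 2, 1 and 2 genes at an unadjusted p under 0.05. Without control 5, 1 cytosolic ribosomal protein gene was called. Of 22 cytochrome P450 and conjugation genes 0 were called, 3 had an unadjusted p under 0.05 and 10 had a positive fold change. Without control 5, 1 of them was called higher and 1 lower. Of the 10 stellate cell and fibroblast markers tested 0 were called and 3 had an unadjusted p under 0.05, but 10 had a positive fold change, with a median of 0.37, and Col1a2 read 6.60 to 7.32 in controls and 7.38 to 7.64 in shock (0.51 ± 0.14, adjusted p = 0.0559, and 0.59 without control 5, adjusted p = 0.0199). Of all calls, 162 of the 399 called genes belonged to a list or family described here and 237 to none. A gene could belong to several lists and was then counted in each.

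**Figure D5:**
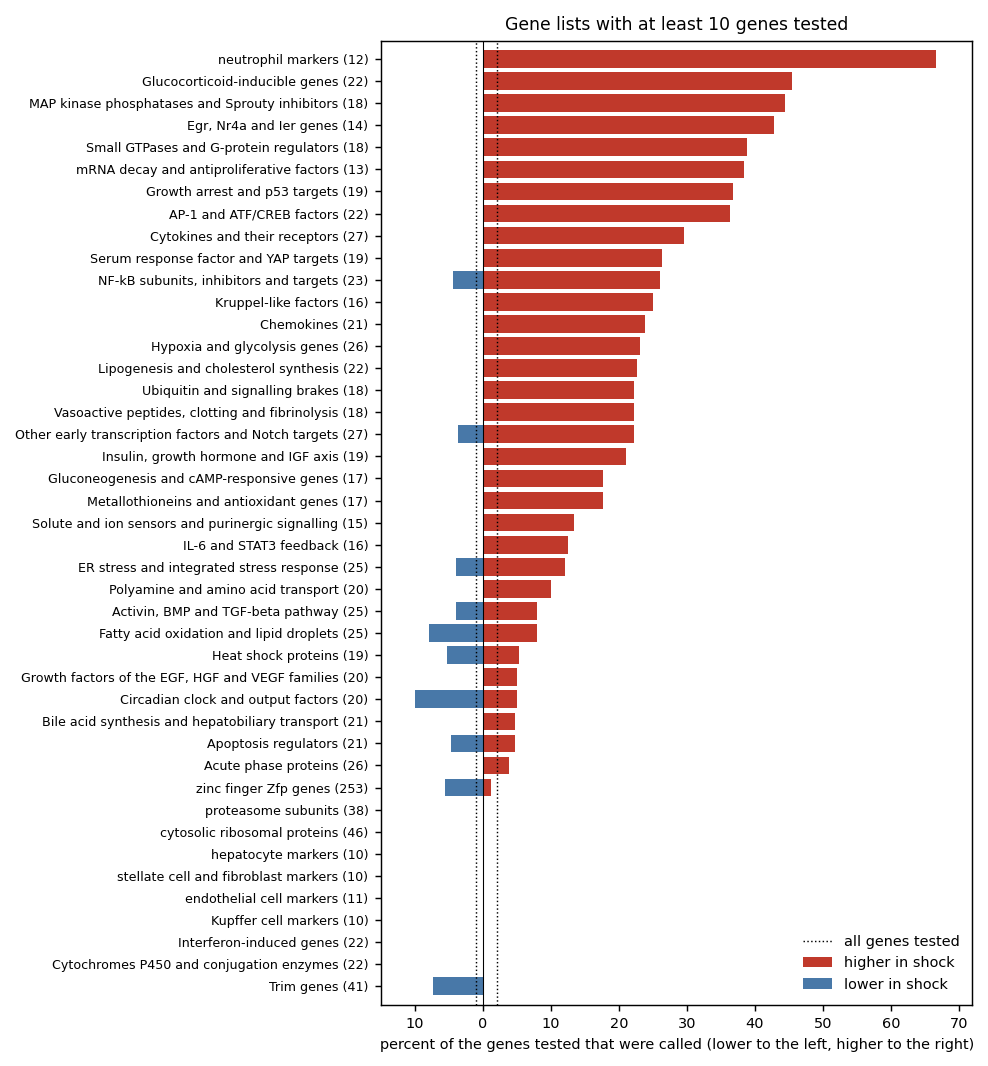
Percent of each list's tested genes (numbers in parentheses) called higher in shock (red, to the right) or lower (blue, to the left), with dotted lines at the 2.03% and 1.08% of all genes tested. Neutrophil markers lead with 8 of 12, and the Zfp and Trim genes extend only or mainly to the left.

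Some called genes lay next to each other on a chromosome. Of 8287 pairs of adjacent protein-coding genes that were both tested, 500 had at least 1 called gene and 16 had both, 12 with both higher, 1 with both lower and 3 in opposite directions. Related pairs were Cxcl1 and Cxcl2, Ccl3 and Ccl4, Il1a and Il1b, S100a8 and S100a9, Mt1 and Mt2, and Clec4d and Clec4e. Fos and Jdp2, both of the AP-1 class, rose by 4.34 and 1.53 on the log2 scale. Among the opposite pairs, Tef fell by 0.94 on the probe set used, but not on its further probe sets, while Tob2 rose by 1.08. Whether probe sets of near-identical copies share signal was not tested. Further kept probe sets of the called genes numbered 327 for 188 genes, and 283 had the sign of the probe set used. Only 117 of the 327 were themselves called in that direction, and 0 in the other. Further probe sets of Pfkfb3 and Cebpd, for instance, gave 0.24 and 0.39 on the log2 scale and were not called.

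Against the 3 arrays labelled minor trauma, shock differed in 1226 genes (9.55%), 536 higher and 690 lower. This comparison uses the same 4 shock arrays, so it is given beside the other and not as a further sample. Atf3, Fos and Egr1 stood 4.75 ± 0.28, 4.04 ± 0.29 and 4.16 ± 0.49 above minor trauma, beside 5.30, 4.34 and 4.30 above control. Il6 and Cxcl2 stood 4.13 ± 0.51 and 4.36 ± 0.48 above it. For other genes called against control the difference from minor trauma was not called: Mt2 -0.10 ± 0.74, Cxcl1 -0.39 ± 0.70, Cebpd 0.01 ± 0.40, Gadd45g 0.37 ± 0.59 and Plk3 0.12 ± 0.36. Cebpd, for instance, read 7.09 ± 1.08 in controls, 8.97 in minor trauma and 8.98 ± 0.21 in shock as group means. A further set was lower in shock than in minor trauma while not called against control. In Orm2, an acute phase protein, the difference was -2.80 ± 0.46, in Nrg4, a hepatic growth factor of the EGF family, -3.30 ± 0.57, and in Cxcl13, a B cell chemokine, -2.98 ± 0.56. Inhbe was lower than in both groups, by 3.18 against minor trauma. Without minor trauma 3 the count of calls was 739, and without shock 2 it was 707.

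Levels in the resuscitated groups are given to place the end of shock in time and were not tested here. Klf4 averaged 7.49 ± 0.28 at the end of shock, 5.78 ± 0.56 after 1 h and 5.22 ± 0.27 after 4.5 h of resuscitation, and 5.06 ± 0.56 in controls. Klf2 and Rgs2 averaged 7.46 and 7.31 in shock and 5.55 and 6.02 after 1 h, against control means of 5.69 and 5.91. Ddit4 read 10.49 ± 0.39 in shock, 7.87 ± 0.59 after 1 h and 9.47 ± 0.14 after 4.5 h. Atf3 averaged 9.54 ± 0.27 and Fos 9.61 ± 0.49 after 1 h, and 6.28 ± 0.45 and 7.27 ± 0.43 after 4.5 h. Cxcl2 averaged 9.53 ± 1.27 at the end of shock and 10.89 ± 0.29 after 1 h, while Tnfaip3 went from 7.96 ± 0.78 to 10.62 ± 0.45 and Nfkbiz from 9.25 ± 0.84 to 10.76 ± 0.21. G6pc averaged 11.81 ± 0.26 at the end of shock and 6.97 ± 0.71 after 4.5 h.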

How the data were processed

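Gene expression was measured in whole liver on 20 arrays. The deposited table holds intensity values from MAS5, as the submitters' processing notes name it, with no version stated there. They were not scaled between arrays (medians 14.0 to 29.1). After adding a pseudocount of 6 and taking log2, quantile normalization was applied across all 20 arrays, and a probe set was kept if above its array median on at least 3 arrays. Gene names came from the platform annotation: of 45101 probe sets 34945 had 1 gene, 932 several, 9160 none and 64 were controls. The brightest kept probe set stood for each gene, which left 12832 of 18193 genes. Fold changes are on the log2(value + 6) scale and understate the change of dim genes. The number of arrays limits the precision.

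Genes were fitted with limma 3.58.1 in R 4.3.3 (data.table package 1.17.8) as 5 group means with an intensity trend, with Benjamini-Hochberg adjustment separately for the 2 comparisons. The analysis was tested on simulated data. The 3′ to 5′ ratios were compared by exact permutation of the 9 arrays. Named genes were the 25 largest rises and 20 largest falls called (clone names left out), up to 6 called members of each list or the 2 with the smallest p, and 8 in each direction against minor trauma. Promoters shown were those of named early factors and chemokines that rose at least 4-fold and hold a searched motif before the start, at most 8, of which 5 were printed. Those on the chromosome of Egr1 were left out of the display but not of the motif counts. The members and lists were chosen with earlier results of these data known. Alternatives were other scalings, pseudocounts, filters, probe set rules, blocks, weights and arrays left out. Motif counts and figures used python 3.11.15 with pandas 2.3.3, numpy 2.4.6 and matplotlib 3.10.9.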

Additional observations from a re-analysis of the deposited data

Results flagged for a closer look

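In each of the 166 named genes the highest and lowest arrays of the 5 controls and of the 4 shock arrays were set against the others by Dixon's ratio of gap to range. Of 332 such groups 31 passed, where chance gives about 5% or 16.6. Below, far means only that this ratio passed, however small the gap on the log2 scale. The explanations of these patterns were not tested.

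Shock 4 was far below the other shock arrays in 10 genes, most of them inflammatory: Acod1 at 2.92 (next lowest 4.97, and a call lost without shock 1, 2 or 3), Cd14 at 7.42 (9.11), the dendritic cell marker Cd83 at 6.35 (7.61), Clec4d at 4.44 (5.68), Clec4e at 4.29 (6.07), Cxcl1 at 9.42 (11.57), Dusp2 at 5.50 (6.83), Pdk4 at 7.50 (8.59), Tnfsf9 at 3.81 (5.97) and Zfp36l1 at 10.66 (10.97). It was far above them in Slc16a5 at 4.36 (2.99) and Zfp809 at 7.21 (6.54). Shock 3 was low in Insig1 at 11.37 (11.75).

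Control 5 was far above the other controls in 9 genes. They were Acod1 at 3.07 (next highest 2.83), Gadd45a at 7.19 (5.91), Lcn2 at 11.78 (7.67), S100a8 at 7.53 (4.85), S100a9 at 7.09 (4.73), Skil at 8.55 (7.89), Thbd at 6.88 (5.66), Tiparp at 7.89 (6.68) and Tnfsf9 at 3.82 (3.0). It was far below them in Axin2 at 5.45 (6.03) and Depp1, a FoxO target, at 6.55 (8.71). The control 5 values of Acod1 and Tnfsf9 lay below the array median of 4.60.

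Control 1 was low in 5 genes, Csrnp1 at 5.36 (5.99), Dusp1 at 7.89 (8.91), G6pc at 9.37 (10.41), Jund at 8.63 (8.99) and Ppp1r15a at 6.12 (6.36). Control 2 was low in Ppp1r3g at 3.42 (3.98), and control 4 was high in Trib3 at 7.30 (6.17), a gene whose call was lost in 5 of the 9 fits without 1 array (adjusted p up to 0.109).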

How the results depend on the processing

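The 399 genes called (260 higher, 139 lower) became 199 on the values as deposited (171 higher, 28 lower), and median centring left 80 lower. Within the arrays with the dap spike-in 152 were called (135 and 17), and within the others 55 (50 and 5), 54 of them at least 2-fold; both use fewer arrays. Array weights gave 758 (399 and 359), and leaving out control 5 together with minor trauma 3 gave 701 (335 lower). Leaving out 1 array gave 245 to 499 calls, 178 to 312 higher and 63 to 187 lower, and 169 to 238 at least 2-fold. The lower calls were 92 without control 3, 63 without shock 2 and 67 without shock 3. Against minor trauma the 1226 calls became 372 as deposited (122 higher, 250 lower), with 321 higher after median centring and 851 higher with array weights, and 707 to 1605 without 1 array (334 to 773 higher, 373 to 832 lower, 301 to 522 at least 2-fold). With the replicate number as a block 482 genes were called (310 and 172). Same-numbered control and shock arrays deviated together only weakly (r = -0.013, 0.013, 0.036 and 0.165). The control that shock 4 followed best was control 4, and the other shock arrays followed a control of another number best. These correlations cannot settle whether same-numbered arrays were handled together.

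Fold changes of 9 named genes changed sign under some setting. With the replicate block they were -0.0047 for Alas2, 0.39 for Cxcl13 and 0.061 for Sult1e1, and without control 5 and minor trauma 3 -0.0049, 0.38 and 0.061. Within the spiked arrays Marco gave 0.11, Cxcl13 0.32 and Orm2 0.44, and within the others Lcn2 -0.50. Array weights gave 0.057 for Cxcl13. With the mean of all kept probe sets Ppp1r15b gave 0.038, Mcl1 -0.0090 and Fn1 0.15. The calls of Ppp1r15b and Mcl1 were lost in 8 of the 9 fits without 1 array (adjusted p up to 0.113 and 0.125). Without 1 array, Alas2 ran from -0.051 to 0.20, Cxcl13 from -0.46 to 0.39 and Sult1e1 from -0.62 to 0.061. The cause of these changes was not tested. Signals near the array median limit the dim genes, which have bounds only.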
